A study of Drosophila melanogaster with 14 samples.

Results

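BS elements are non-LTR retrotransposons, also called LINEs, of the jockey clade. The predicted insertions described here are the records whose family name is BS, BS3 or BS4 in 14 lists of predicted TE insertions absent from the dm6 reference genome. They made up 775 of 20426 records, of which 717 carried the name BS, 54 the name BS3 and 4 the name BS4. Members were chosen by this name, the best match of the unmapped read parts to canonical TE ends, which is itself measured. The family was also selected on its counts of pool-specific records, so those counts are given as a description. Of the 775 records, 719 lay on nuclear chromosomes and 56, all named BS, on the mitochondrial genome, and both groups were kept apart.

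All libraries came from genomic DNA of one Drosophila melanogaster line, w in background, that carried the driver tj-GAL4, the repressor tubP-GAL80[ts] and the hairpin sh-piwi. The traffic jam promoter of the driver is active in the somatic follicle cells of the ovary, where the hairpin lowers piwi once the heat-sensitive GAL80 is off. The no-KD group was 1 pool of embryos 3 to 17 h old, their number not given, from flies held at 20°C. The piwi-sKD group was 1 pool labelled as adult flies, at 25°C for the last 5 days. The methods of the study instead describe embryos of the second generation, in which case the 5 days applied to their ancestors. The third group was 12 single adult flies of the piwi-sKD condition, for which the study again names the second generation, so that the shift would have applied to their ancestors. Ages and sexes of the flies are not given. With 1 library for each pool, their differences lack a replicate check. The pools also differ from the flies in sequencing site and number of animals, with reads of 100 nt for the pools and 125 nt for the flies.

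A LINE carries no long terminal repeats. It is copied from RNA into DNA at the nick made in the target, many copies are cut short at their 5′ end, and a full-length copy encodes an RNA-binding protein and an endonuclease with reverse transcriptase. In the fly ovary such elements are mostly restrained by piRNAs of the germline, whereas the follicle-cell pathway acts above all on LTR elements of the gypsy group.

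The lists had 4356 records with 38580 supporting reads for the no-KD pool and 5096 with 47733 for the piwi-sKD pool. A fly had 537 to 1307 records with 1774 to 5901 reads. The deposited support of the no-KD pool had been multiplied by a constant factor, and its reads are given here without that factor, so that read numbers of the pools are not matched for depth. The factor raises the support of the no-KD pool, for which the study gives a lower coverage than for the piwi-sKD pool. A record needs at least 2 reads to be listed, so a locus that is not listed in a library may still be present there. Conversely, the study warns that predictions of a single library can be false, from TE and genome fragments joined during library preparation. Which records are of this kind was not tested. Intervals stand for counting error alone, because PCR copies can stand behind several supporting reads.

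BS-type records were more frequent in the lists of the pools than in those of the flies. They were 214 of the no-KD records, or 4.91% (Wilson 95% interval 4.31 to 5.60), and 302 of the piwi-sKD records, or 5.93% (5.31 to 6.61). In the flies they were 2.32% ± 0.454 (SD, n = 12), from 1.68% to 2.94%, so that no fly reached the lower bound of either pool. In reads the groups overlapped. BS-type records held 2.34% of the supporting reads of the no-KD pool, 2.52% of those of the piwi-sKD pool and 2.72% ± 0.348 of those of a fly (SD, n = 12; lowest 2.26%, highest 3.49%). The pools thus listed more BS-type records for a like share of reads. Whether the number of animals, the depth or the site of sequencing set this difference cannot be told apart.

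Nuclear records of one name within 500 bp of each other were joined over all 14 libraries into loci. There were 452 loci, 432 of BS, 18 of BS3 and 2 of BS4. A small part of them was listed again and again. Only 42 loci were listed in both pools, 18 of these also in at least 1 fly, and 9 in at least 10 flies. All 9 loci of at least 10 flies were also in both pools. They held 33.4% of the nuclear BS-type reads of the no-KD pool, 30.0% of those of the piwi-sKD pool and 68.3% of those of the flies. Each fly had between 7 and 9 of them, with a median of 8.5.

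**Figure D1:**
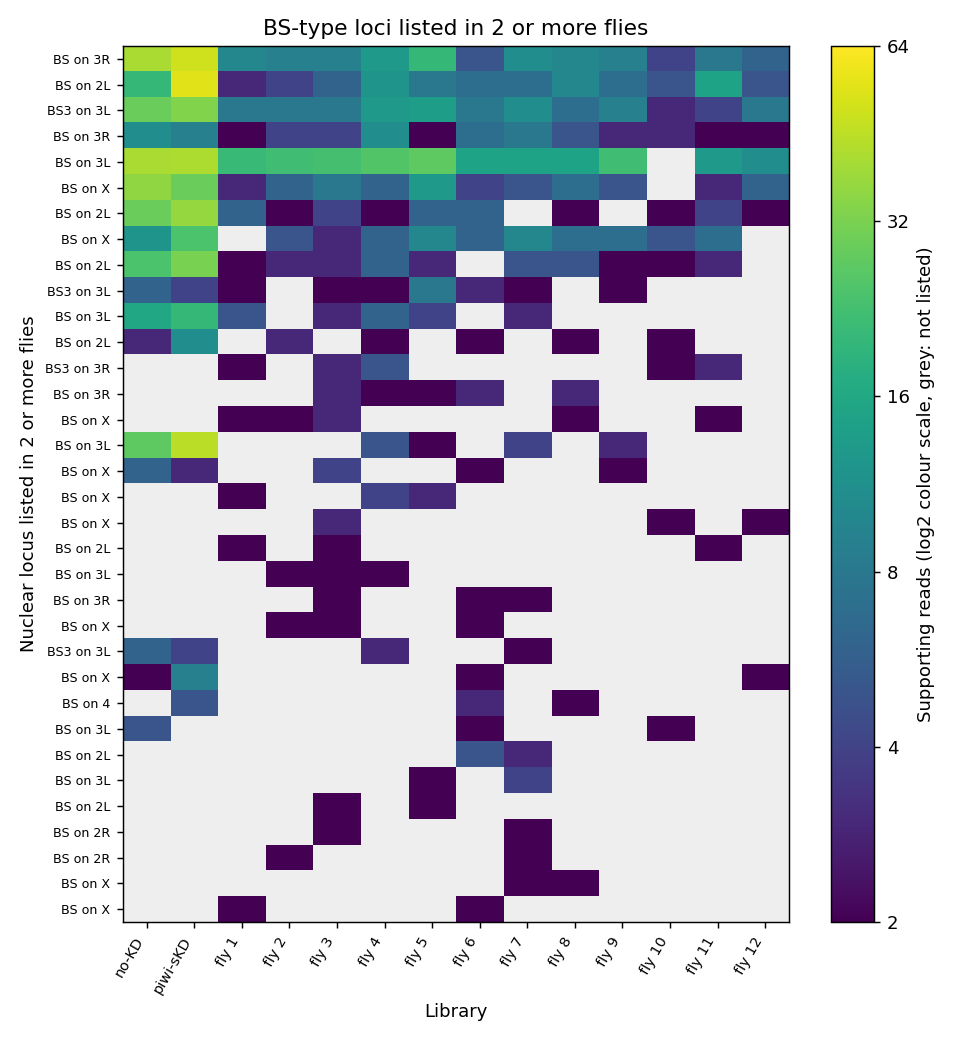
Supporting reads (log2 colour scale) of the 34 nuclear BS-type loci listed in 2 or more flies, with one row for each locus, one column for each library, and grey where a locus was not listed. The 9 upper rows are coloured in nearly every library, and 16 rows are coloured in flies but in neither pool.

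Among these, 4 loci were listed in all 14 libraries. The best supported was a BS locus at 3R 5732596 to 5733171, outside any annotated gene. It had 41 reads in the no-KD pool, 50 in the piwi-sKD pool and between 4 and 20 in a fly (median 9). A BS locus at 2L 19416785 to 19417339 had 20 and 55 reads in the no-KD and piwi-sKD pools and 3 to 15 in a fly (median 7). It lay inside Pax (Dmel_CG31794, 2L 19400753 to 19426596), which encodes the focal adhesion protein paxillin. The BS3 locus at 3L 23435063 to 23435611, outside annotated genes, had 29 and 33 reads in the pools and 3 to 14 in a fly (median 8). A BS locus at 3R 19952099 to 19952689 had 11 and 9 reads in the pools and 2 to 11 in a fly (median 3.5), inside Hs6st (Dmel_CG4451, 3R 19929277 to 20008512), a sulfotransferase gene for heparan sulfate. In read numbers not matched for depth, the piwi-sKD pool had more reads than the no-KD pool at the first 3 of these loci and fewer at the last. With the deposited scaling of the no-KD pool, the order turned at 3R 5732596 and at the BS3 locus, with 50.4 against 50 and 35.7 against 33, and held at the locus in Pax, with 24.6 against 55, and at that in Hs6st, with 13.5 against 9.

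The locus with the most reads of all was listed in 13 libraries. At 3L 18514878 to 18515054, it had 41 reads in the no-KD pool, 42 in the piwi-sKD pool and up to 27 in a fly (median 18), and it was not listed in fly 10. Of the 14 records at this locus, 10 started at the same base, 3L 18515054. Fly 10 also had the lowest maximum of all libraries, 5 reads for its best supported BS-type record. The BS locus at X 10070733 to 10071218 had 36 and 29 reads in the no-KD and piwi-sKD pools and up to 13 in a fly, and was also missing from fly 10. Its first part overlapped the end of CG15312 (X 10055629 to 10070868), whereas its most frequent position, X 10071008, lay outside. A BS locus at 2L 2620965 to 2621813 had 29 and 37 reads and up to 6 in a fly, and was missing from flies 7 and 9. Both remaining loci of at least 10 flies, at 2L 15894597 and X 18322353, lay outside the naming rule and were chosen after their values were seen. They had 24 and 12 reads in the no-KD pool and 32 and 24 in the piwi-sKD pool, in the same order.

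Positions of the records at these loci differed between libraries. At 7 of the 9 loci, a pool listed more than 1 record of the same name. At X 10070733, for example, the no-KD pool had records at X 10070739, 10071013 and 10071204 with 13, 16 and 7 reads, and the piwi-sKD pool had records at X 10070733, 10071005 and 10071218 with 2, 19 and 8. Over the 9 loci all records of both pools spanned 1 to 590 bp (median 485). The best supported records of the flies, 1 for each fly, spanned 11 to 123 bp (median 56). These ranges are not alike, since further records of a fly were left out, such as that of fly 5 at 2L 2620965 with 2 reads. The pools had the narrower range at 2L 15894597, with 1 against 56 bp, and at 3L 18514878, with 2 against 11 bp. At 8 of the 9 loci no other family was listed within 500 bp in any library.

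**Figure D2:**
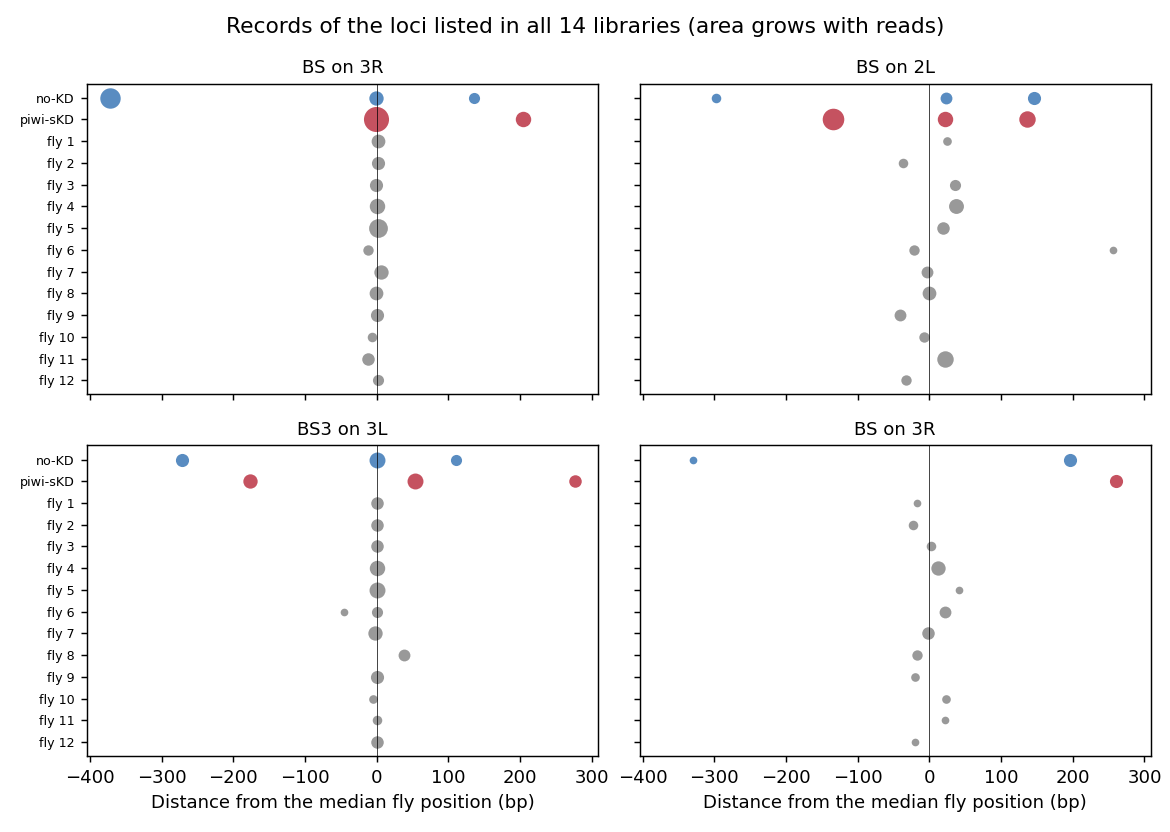
Distance in bp of each record from the median fly position (x axis) at the 4 loci listed in all 14 libraries, by library (y axis), with blue for the no-KD pool, red for the piwi-sKD pool, grey for flies and an area that grows with the supporting reads. The flies sit mostly near 0, whereas most pools have records to both sides. At the fourth locus, BS on 3R with 11 and 9 pool reads, no pool record is near 0.

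A second set of loci was listed in both pools with no fly. There were 24 of them, 10 on the X, and 8 of these lay between X 22433140 and 23433747, where all 8 had records of other families within 500 bp (median 5.5 families). In this stretch the no-KD pool had 62 BS-type reads and the piwi-sKD pool 78. The best supported of the 8, X 23283132 to 23284109, had 15 reads in the no-KD pool and 21 in the piwi-sKD pool. It overlapped the ribosomal RNA precursor gene pre-rRNA:CR45856 (X 23278007 to 23283731), and 17 other families were listed within 500 bp of it, by 35 records of the pools and 1 of a fly. Next to it in reads were X 22433140 to 22433190, with 14 in each pool, and X 23431168 to 23431726, with 12 and 16. Of the 16 other loci of both pools without a fly, 8 stood alone, with no record of another family within 500 bp. Among these was the best supported locus without a fly, at 2L 15142318 to 15142497, with 27 reads in the no-KD pool and 19 in the piwi-sKD pool. The locus at 2L 19364015 to 19364334 stood alone too, with 17 and 14 reads. Between both sets was a BS locus at 3L 14396783 to 14397264, with 27 reads in the no-KD pool and 45 in the piwi-sKD pool. It was listed in flies 4, 5, 7 and 9 with 5, 2, 4 and 3 reads, so a locus with pool reads within the range of the 9 was listed in 4 of the flies.

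Most loci were listed in a single pool. The piwi-sKD pool held 208 such loci and the no-KD pool 120, and most were thin calls. Of the 208, 177 rested on 2 reads in all, and of the 120, 111 did. The best supported in a single library was a pair of piwi-sKD records at X 12192489 to 12192786, inside Ten-a, a teneurin gene of synaptic adhesion, with 8 reads. This locus was picked for its reads, outside the naming rule. Flies listed 4 of the 208 piwi-sKD loci and 1 of the 120 no-KD loci.

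The share of loci found in both pools was low beside that of related elements. Of the 370 BS-type loci listed in a pool, 11.4% (Wilson 95% interval 8.51 to 15.0) were in both. For F-element and jockey, LINEs of the same clade, it was 73.9% (67.8 to 79.2) of 226 loci, for the Doc family 60% (52.1 to 67.4) of 155, and for all other families together 55.3% (53.7 to 56.8) of 3985. Of the single-pool loci, 1.52% of the BS type, 16.9% of F-element and jockey, 19.4% of Doc and 14.3% of all other families were listed in a fly. The BS-type share of loci in both pools depended on records with 2 reads. With at least 3 reads, 25 BS-type loci were in both pools, 32 in the piwi-sKD pool only and 15 in the no-KD pool only. The same count was not made for the other families. These values compare 2 libraries and have no test over replicates.

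The support per record differed in the same way. In the no-KD pool 68.3% (Wilson 95% interval 61.3 to 74.5) of nuclear BS-type records had 2 reads, against 31.2% (29.8 to 32.7) of the other families, and in the piwi-sKD pool 72.7% (67.1 to 77.6) against 33.8% (32.5 to 35.2). For the name BS alone, this share of 70.5% in the no-KD pool was the highest among 58 families with at least 20 nuclear records. In the piwi-sKD pool the 74.3% of BS were exceeded by 1 of 69 families, GATE with 76.2%. F-element and jockey had 20% and 22.0%, the Doc family 26.7% and 31.2%. In the flies, the share of BS-type records with 2 reads was 49.8% ± 9.28 (SD, n = 12), and that of the other families 48.5% ± 4.97. The difference of 1.32 percentage points ± 12.1 (SD over flies) did not pass the test (exact permutation test over flies by sign flips, two-sided, p and adjusted p = 0.708 over 4 tests), with BS-type higher in 9 of 12 flies. Against F-element and jockey alone, BS-type records were more often at 2 reads, by 13.4 points (exact permutation test, adjusted p = 0.00684 over 8 tests, higher in 10 of 12 flies). Against the Doc family the difference was -3.76 points, with BS-type higher in 5 of 12 flies, and did not pass (exact permutation test, adjusted p = 0.375 over 8 tests).

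**Figure D3:**
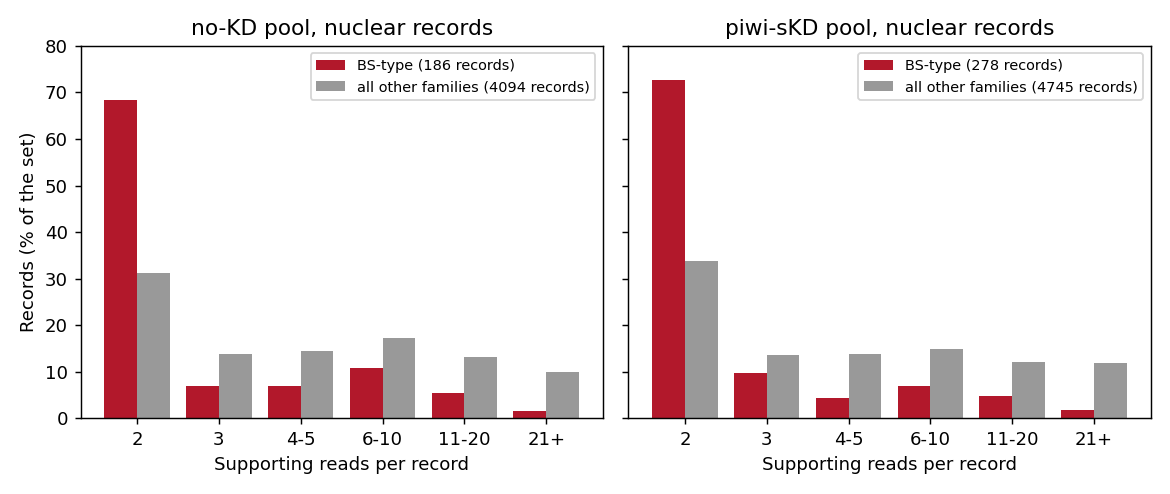
Share of nuclear records (y axis, % of the set) by supporting reads per record (x axis, in classes) in the no-KD pool on the left and the piwi-sKD pool on the right, in red for BS-type records and in grey for all other families. At 2 reads the BS-type bars reach 68.3% and 72.7% and the grey bars 31.2% and 33.8%, and in all higher classes the red bars are the lower ones.

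The study searched for families with more insertions particular to the piwi-sKD pool, after reducing the piwi-sKD reads at random to the number of no-KD reads. No such matching was made here, so the ratios below are not those of the study. A record was taken as pool-specific when no record of any family in the other pool lay within 20 bp. By this rule 239 BS records were piwi-sKD-specific and 148 no-KD-specific, a ratio of 1.61 (exact 95% interval 1.31 to 1.996), whereas 1.32 (1.25 to 1.40) was found for all records outside the BS type. Over all 114 families tested, 0 (0%) had an adjusted p under 0.05 and 2 (1.75%) an unadjusted one (Fisher's exact test of a family against the rest, two-sided, Benjamini-Hochberg). BS and BS3 were among the 114, but their counts served to select them, so no p is given and nothing is concluded from their test. BS4 had too few specific records to be tested. A larger piwi-sKD count than no-KD count was the common case, in 78.9% of the families. The study gives a higher coverage for the piwi-sKD pool than for the no-KD pool. The part of this in the counts was not tested. BS3 had 10 and 7 specific records, and BS4 had 1 and 1.

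The ratio was above that of the other families at 3 levels of support, each taken after matching to the whole list of the other pool. It was below when records under the median support of their library were left out before matching. BS then had 32 and 29 specific records, a ratio of 1.10 (odds ratio 0.856). Among nuclear BS-type records, 193 piwi-sKD-specific and 112 no-KD-specific ones had 2 reads, a ratio of 1.72 (exact 95% interval 1.36 to 2.19). With 3 or more reads there were 45 and 28, a ratio of 1.61 (0.981 to 2.68). With 5 or more reads, 19 and 12 gave 1.58 (0.730 to 3.58). For the other families the corresponding ratios were 1.39, 1.27 and 1.18. Most specific BS-type records thus had 2 reads, the BS-type intervals of the 3 levels overlapped, and each held the value of the other families. Of the 250 BS-type records specific to the piwi-sKD pool, 39 had a record of the same name within 500 bp in the no-KD pool, and of the 156 specific to the no-KD pool, 40 had one in the piwi-sKD pool. When loci were compared instead of records, the BS type was not above the rest. Its ratio of 208 to 120 loci was 1.73 (1.38 to 2.19), and that of all other families, with 1140 and 643, was 1.77 (1.61 to 1.96).

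By chromosome, the ratio of specific records was alike on the large arms. It was 1.85 on 2L, 1.62 on 2R, 1.66 on 3L, 1.59 on 3R and 1.64 on the X. Chromosome 4 had 6 piwi-sKD-specific records and 1 no-KD-specific record, and the Y had 2 and 1. The mitochondrial genome went the other way, with 12 and 16, a ratio of 0.750 (exact 95% interval 0.324 to 1.69), and so did the other families there, with 26 and 29. Without the mitochondrial genome BS had 227 and 132 specific records. Compared with other families, BS-type records were sparse on the Y, with 0.935% of the no-KD and 0.993% of the piwi-sKD BS-type records against 7.24% and 7.26% of the others. On 2R the shares were 10.3% and 11.6% against 18.3% and 18.9%, and only 1 of the 42 loci of both pools lay there.

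BS records of the pools were more often mitochondrial than those of most families. The no-KD pool had 28 of them with 176 reads, or 13.1% (Wilson 95% interval 9.21 to 18.3) of its BS-type records, compared with 1.16% (0.875 to 1.53) for other families. The piwi-sKD pool had 24 with 170 reads, or 7.95% (5.40 to 11.6), compared with 1.02% (0.774 to 1.35). By its mitochondrial share, the name BS stood 4th of 60 families with at least 20 records in the no-KD pool, where HMS-Beagle2 led with 26.1%, and 5th of 70 in the piwi-sKD pool, where Tabor led with 25%. BS accounted for 36.8% and 32.9% of all mitochondrial records of the no-KD and piwi-sKD pools. F-element and jockey had none in any library, and the Doc family had 3, all in the piwi-sKD pool. The BS records ran from position 29 to 12416 in the no-KD pool and from 215 to 12563 in the piwi-sKD pool, and neighbours were 107 to 1876 bp apart (median 291) and 112 to 2148 bp apart (median 362). They were better supported than the nuclear ones, with medians of 4.5 and 5.5 reads against 2 and 2, and the highest had 40 reads in the no-KD pool and 34 in the piwi-sKD pool. Of the 28 no-KD records, 7 had a BS record of the piwi-sKD pool within 20 bp. By the rule of any family within 20 bp, 16 of the 28 were specific to the no-KD pool. All 28 had a BS record of the piwi-sKD pool within 500 bp, which says little where the median gap in that pool was 362 bp. In the flies there were 4 such records, 2 in fly 4 and 1 each in flies 6 and 11, with 2 or 3 reads. Their share of the BS-type records of a fly, 1.38% ± 2.62 (SD, n = 12), was 1.35 points above the 0.0332% ± 0.0497 of other families, a difference that did not pass the test (exact permutation test, two-sided, adjusted p = 0.333), higher in 3 flies and lower in 2. Since 7 flies had no mitochondrial record of either set, this test had little to work with.

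Across the 12 flies, the number of nuclear BS-type records was 9 to 30 (median 19.5), lowest in fly 12 and highest in flies 3, 5 and 7. It followed the number of nuclear records of the other families (n = 12; permutation p = 7.00e-05 and adjusted p = 1.40e-04 for Pearson's r of 0.881, and 5.90e-04 before and after adjustment for Spearman's rho of 0.866). Without flies 5 and 12, the farthest from the median, r was 0.824 (permutation p = 0.00268, n = 10). No batch among the flies is given. Loci seen in no pool varied more between flies than those also seen in a pool. A fly had 8 to 16 loci that a pool also listed (median 11), with 30 to 119 reads, and 1 to 18 loci that neither pool listed (median 9), with 2 to 41 reads. Each of the 12 flies had a median of 2 reads at the latter, whereas its median at the former was 2.5 to 8 reads.

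The flies held 82 BS-type loci that neither pool listed. Of these, 66 were in 1 fly and 16 in 2 to 5 flies, the highest support in any fly being 5 reads, and 92 of their 113 records had 2 reads. The 16 recurrent loci were narrow, with a median span of 20.5 bp and 8 within 20 bp, and 13 of them lay inside a gene span. Of all 82 loci 55 did, and of the nuclear fly records of the other families 56.3%. A BS locus at 3R 21125743 to 21125748, inside slmb (Dmel_CG3412), the F-box subunit of a ubiquitin ligase, was listed in flies 3, 4, 5, 6 and 8 with 3, 2, 2, 3 and 3 reads. A BS locus at X 16818673 to 16818693, inside CG4829, was listed in flies 1, 2, 3, 8 and 11 with 2, 2, 3, 2 and 2 reads. The BS3 locus at 3R 816574 to 816665, inside the myosin gene Myo81F, was listed in flies 1, 3, 4, 10 and 11 with 2, 3, 5, 2 and 3 reads. Those at X 10572410 to 10572428, inside spri, and at X 1546603 to 1546661, inside Mur2B, were in 3 flies each, with up to 4 and up to 3 reads. None of the 5 loci was well supported in any fly, and no fly had all of them.

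BS-type records of a fly were more often private than those of other families. A record was called private when neither the other flies nor the no-KD pool had a record of any family within 20 bp. There were 83 nuclear BS-type private records, 0 to 14 in a fly (median 8), and 84.3% of them had 2 reads, compared with 35.5% of the BS-type records that were not private and 79.2% of the private records of other families. The private share was 28.9% ± 15.6 for the BS type and 15.1% ± 2.51 for the others (SD, n = 12). The difference of 13.8 percentage points ± 14.8 (SD) passed the test (exact permutation test over flies, two-sided, p = 0.0112, adjusted p = 0.0225), with BS-type higher in 9 of 12 flies. The call was lost with a window of 0 bp, where the difference was 12.3 points and the adjusted p 0.0693. Against F-element and jockey the difference was 18.1 points (exact permutation test, adjusted p = 0.00684 over 8 tests), and against the Doc family it was 10.03 points, which did not pass (exact permutation test, adjusted p = 0.119). Of the 83 private records, 23 had a record of the same name within 500 bp in another library.

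BS-type records of a fly rarely had a neighbour. The share with another record of the same name within 500 bp in the same fly was 2.92% ± 5.51 for the BS type and 19.9% ± 4.31 for other families (SD, n = 12), a difference of -16.9 points ± 6.59 (SD) with the BS type lower in 12 of 12 flies (exact permutation test, two-sided, p = 4.88e-04, the smallest that sign flips of 12 flies can give; adjusted p = 0.00195). Only 3 flies had such a BS-type pair at all. The difference was -16.04 points against F-element and jockey and -13.4 points against the Doc family, lower in 11 of 12 flies in each case (exact permutation test, adjusted p = 0.00391 for both, over 8 tests). A fly had 44 to 107 nuclear records of F-element and jockey and 20 to 54 of the Doc family, against 9 to 30 of the BS type, and the part of these numbers in the result was not tested. In the pools 19.9% and 16.9% of nuclear BS-type records had such a neighbour, compared with 50.8% and 49.4% for other families.

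**Figure D4:**
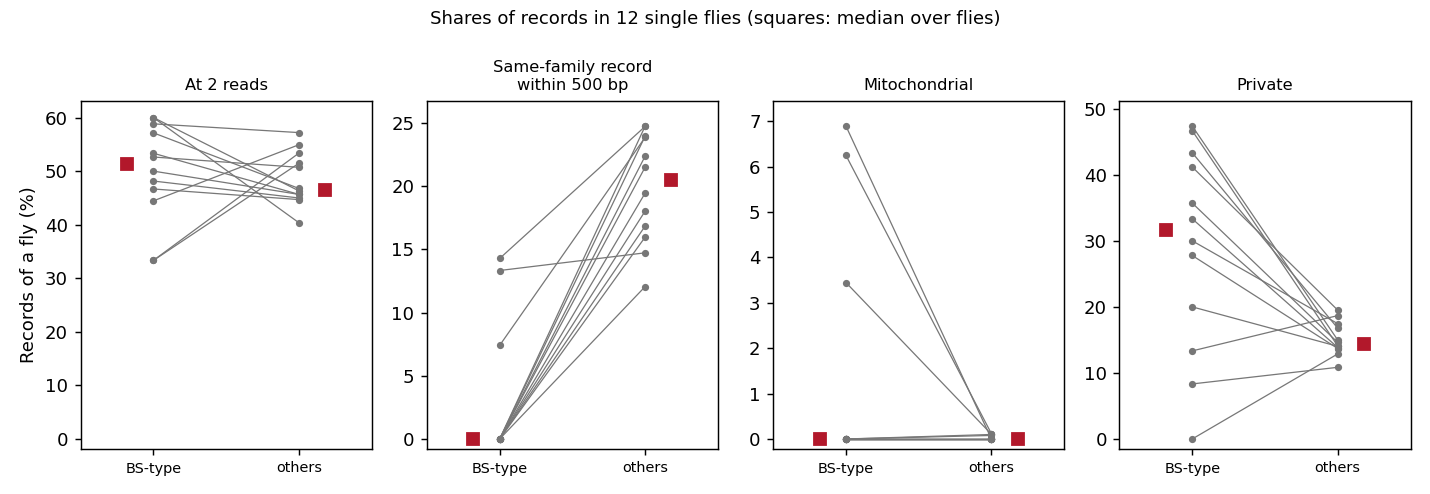
Share of the records of a fly (y axis, %) for BS-type records on the left and all other families on the right of each panel, with a grey line for each of the 12 flies and a red square for the median over flies. In the panel on same-family records within 500 bp all 12 lines rise from left to right, in the panel on private records 9 of 12 fall, and in those on 2-read and mitochondrial records the lines do not all run one way.

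The 3 names differed in how their records were distributed. BS3 had 54 records at 18 loci, and 163 of its 263 reads (62.0%) came from the single locus at 3L 23435063. Of its 18 loci, 7 lay on 3L with 37 of its 54 records, 6 of them between 3L 23296428 and 24153816. The next BS3 locus in reads, at 3L 24153773 to 24153816 inside Snap25, a gene of synaptic vesicle fusion, had 6 reads in the no-KD pool, 4 in the piwi-sKD pool and 21 over 7 flies, and was picked for its reads. BS4 had 2 loci. One, at 3R 4582524 to 4582842, had 3 reads in the no-KD pool, 2 in the piwi-sKD pool and 2 in fly 5. The other, at 2R 2191859 inside CG17684, had 3 reads in fly 10 and was listed nowhere else. BS supplied the remaining 432 loci, 372 of which were a single record.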

How the data were processed

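Genomic DNA of 1 no-KD pool, 1 piwi-sKD pool and 12 single flies was sequenced as paired-end reads. The authors mapped them to dm6 with BWA (0.7.5a-r405 for the pools, 0.7.10-r789 for the flies) and called insertions with T-lex de novo, which aligns unmapped read parts to the ends of canonical TEs. The deposited support of the piwi-sKD pool and the flies is a count of reads per record. The deposited support of the no-KD pool is a scaled signal, and 100% of its values are whole multiples of 1.23 (tolerance 0.001 of a step), so it was divided by 1.23. Whether coordinates count from 0 or 1 is not stated. No depth matching was made.

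Members and tests were chosen with earlier results of these data known. Records were matched between libraries within 20 bp, whatever the family, and joined into loci within 500 bp of the same name. Families with at least 5 pool-specific records were tested with Fisher's exact test. Within-fly shares were tested over all 4096 sign flips, correlations with 100000 permutations, and adjusted by Benjamini-Hochberg. The family test and the sign flips were tested on simulated data first. Gene spans came from the RefSeq table of the same release, which gives no exons. Named loci were those of all 14 libraries, the 5 with most records, with most pool reads, in most flies but neither pool, and with most reads in the no-KD pool but no fly, and all BS4 loci. Python 3.11.15, numpy 2.4.6, pandas 2.3.3, scipy 1.17.1 and matplotlib 3.10.9 were used. Labels do not say whether the flies were siblings.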

Additional observations from a re-analysis of the deposited data

How the results depend on the processing

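Alternatives were other windows and join distances, other support minimums, other comparison families, and the mitochondrial genome or each fly left out. The BS ratio of pool-specific records ran from 1.10 to 1.84 over 10 alternatives. Keeping to the chromosome arms and leaving out the mitochondrial genome gave the same counts, 227 and 132, and so repeat each other. The BS ratio fell below that of the other families at 500 bp (1.84, odds ratio 0.985), with records below the median support left out (1.10, odds ratio 0.856) and as loci (1.74, odds ratio 0.997). BS3 did so with the median support (0.750) and as loci (1.67). Over both names, the ratio kept its side of the other families in 15 of 20 alternatives. The 2-read difference in flies turned to -6.75 points when records of at most 3 reads were counted, and to -0.350 points without fly 5. The private difference was 12.3 points at 0 bp (adjusted p = 0.0693), and 12.4 to 15.9 points in its other alternatives. With at least 3 reads, 87 nuclear loci were left, 25 of both pools, 32 of the piwi-sKD pool only and 15 of the no-KD pool only. The causes of these changes were not tested, apart from the loci, which a higher minimum removes by its construction. Leaving out each fly gave -0.350 to 3.26 points for the 2-read difference, -18.4 to -16.2 for neighbours, 0.845 to 1.48 for the mitochondrial share and 12.1 to 16.2 for the private share, the highest adjusted p of the last being 0.0449 by the exact permutation test. Direction and side of the threshold were kept in 14 of 16 alternatives of the tests and correlation over flies, and in 47 of 48 fits without a fly. Of 25 recounts of loci, 21 stayed within 1.5 times the first count. Both the 16 and the 25 include alternatives kept to the chromosome arms. No nuclear record lay off the arms, so these repeated the first result by construction. No paired analysis was possible because there was 1 library for each pool. The listing minimum of 2 reads limits what a fly can show.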

Other observations

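Loci of both pools were less often inside a gene span than the rest. Of the 42 loci, 18 lay in one (42.9%, Wilson 95% interval 29.1 to 57.8), compared with 140 of 208 of the piwi-sKD pool only (67.3%, 60.7 to 73.3), 78 of 120 of the no-KD pool only (65%, 56.1 to 72.9) and 55 of 82 of the flies only (67.1%, 56.3 to 76.3). Of the 9 loci found in at least 10 flies, 3 touched a gene span. Among nuclear records of the other families, counted as records and not as loci, 52.1% in the no-KD pool and 51.5% in the piwi-sKD pool lay in one. Both values are within the interval of the 42 loci. These shares were set side by side after the loci had been seen, and no test was run.

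BS-type records of the pools were mostly given as a single base. An interval wider than that was listed for 5.91% (Wilson 95% interval 3.33 to 10.3) of the nuclear BS-type records of the no-KD pool and 7.55% (4.99 to 11.3) of those of the piwi-sKD pool, compared with 19.6% and 19.3% for the other families. The Doc family had 12.8% (8.60 to 18.6) in the no-KD pool and 9.68% (6.21 to 14.8) in the piwi-sKD pool, with intervals that overlap those of the BS type. F-element and jockey had 17.8% and 16.8%. In the flies it was 16.1% of the BS-type and 19.9% of the other records, over all flies together. There the Doc family had 10.4%, below the BS type, and F-element and jockey 15.2%.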
